A study of Homo sapiens with 12 samples.

Results

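RNA from HK2 cells, an immortalised line of human proximal tubular epithelial cells (TECs), was compared between cells that received a short-chain fatty acid (SCFA) together with TNF-α and cells that received neither. The 8 libraries of the 4 SCFA groups, taken from 12 libraries in all, were set against the 2 libraries of the untreated group Ctrl. In PRTN and BUTN the cells were given propionate (15 mM) or butyrate (3 mM) for 24 h before TNF-α (5 ng/mL, 3 h), and in TNPR and TNBU the same acids were given for 24 h after it. Each group had 2 biological replicates. The group TN, which received TNF-α alone for 3 h and is the remaining pair of libraries, is given beside the results as a reference.

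All cells were of a single line grown in serum-containing medium, so that donors did not vary. The design has no group with an SCFA and no TNF-α, and no vehicle or salt control. A difference from Ctrl therefore cannot be split into a share of the acid and a share of TNF-α, and reading TN beside it does not allow the split. TNPR and TNBU cells were collected a day later relative to TNF-α than TN cells, and the time at which Ctrl cells were collected is not given in the sources used here. The methods name the acids where other text names their sodium salts. The general treatment protocol in the labels names other agents than the source name of each library, and the groups follow the latter.

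Propionate and butyrate are made by gut bacteria from dietary fibre, reach the kidney with the blood and enter cells through monocarboxylate transporters. They signal through G protein-coupled receptors, are oxidised as fuel and, at millimolar concentration, inhibit class I and IIa histone deacetylases, the enzymes that remove acetyl groups from histones and other proteins. TNF-α is an inflammatory cytokine that acts on tubular cells through its receptors and the transcription factor NF-κB, and so induces chemokines, adhesion molecules and the inhibitors of its own pathway. Inhibitors of histone deacetylases are known in many cell types for inducing the cell cycle inhibitor p21 and for raising the transcription of otherwise silent genes.

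Library totals ran from 27269986 to 33851130 expected counts, and mitochondrially encoded transcripts took 5.86% to 9.46% of them. Values below are CPM, that is counts relative to the library total, after TMM scaling, which sets the libraries to a common level for most genes. The median absolute log2 difference between the replicates of a group was 0.0828 to 0.104 in Ctrl, TN, PRTN and BUTN, 0.14 in TNPR and 0.158 in TNBU. The label of the cells was checked against tubular markers. The renal lineage factor PAX8 was at 362 and 366 CPM in Ctrl, the brush border enzyme GGT1 at 221 and 220 CPM and the epithelial keratin KRT8 at 781 and 785 CPM. Several transporters that define the proximal tubule in the kidney were at or near 0: SLC22A6 had no count in any of these 10 libraries, SLC22A8 reached 0.0313 CPM at most, SLC34A1 stayed under 0.1 CPM, and the endocytic receptor LRP2 had no count in Ctrl. The glucose transporter SLC5A2 was at 3.81 and 3.09 CPM in Ctrl and at 1.22 to 3.93 CPM with SCFA, without a consistent call. Among the other markers checked, E-cadherin (CDH1) was at 0.24 and 0.294 CPM in Ctrl and the water channel AQP1 at 0.721 and 0.359 CPM. The brush border peptidases ANPEP (0.103 and 0 CPM) and MME (no count) were also low, while EPCAM was at 57.0 and 55.1 CPM and DPP4 at 95.2 and 89.6 CPM. PAX8 and the keratin thus marked renal and epithelial lineage, while E-cadherin and several transporters and brush border enzymes of the differentiated segment were nearly or wholly lacking.

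The 4 comparisons share the same 2 Ctrl libraries, so that an error in a Ctrl value moves all 4 alike. A gene was called where its fold change exceeded 1.5 with an adjusted p under 0.05 (limma-voom, Benjamini-Hochberg over 24342 tested genes), and the call counted as consistent only where all 4 groups gave it. Of the tested genes, 4186 (17.2%) were above Ctrl and 2884 (11.8%) below it in all 4 SCFA groups. PRTN alone had 5494 genes (22.6%) up and 4107 (16.9%) down, against 5352 (22%) and 3638 (14.9%) for BUTN. TNPR had 5740 genes (23.6%) up and 4088 (16.8%) down, and TNBU 5735 (23.6%) up and 4006 (16.5%) down. TN differed from Ctrl in far fewer genes, 186 (0.764%) up and 130 (0.534%) down, and these numbers rest on few libraries, with 118 up without Ctrl replicate 1 and 50 down without TN replicate 1. An SCFA after TNF-α against before it gave 74 genes (0.304%) higher and 96 (0.394%) lower, and propionate against butyrate 25 (0.103%) higher and 46 (0.189%) lower. Without BUTN replicate 1 these were 21 and 35 for the order, and 2 and 15 for the acid, and without TNBU replicate 1 they were 252 and 167, and 11 and 78.

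A gene called in any SCFA group was usually called in all of them. Of 12270 genes called in at least 1 group, 57.6% were called the same way in all 4, and 12072 genes (49.6% of those tested) were called in none. Only 3 genes were called up in some groups and down in others: TNFAIP2, a TNF-α-inducible gene, and 2 loci without a gene name. For every gene called consistently, the 8 SCFA libraries did not overlap the 2 Ctrl libraries. Calls in all 4 groups against the same 2 libraries largely fix this in advance, so it adds no support, here or for single genes below.

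**Figure D1:**
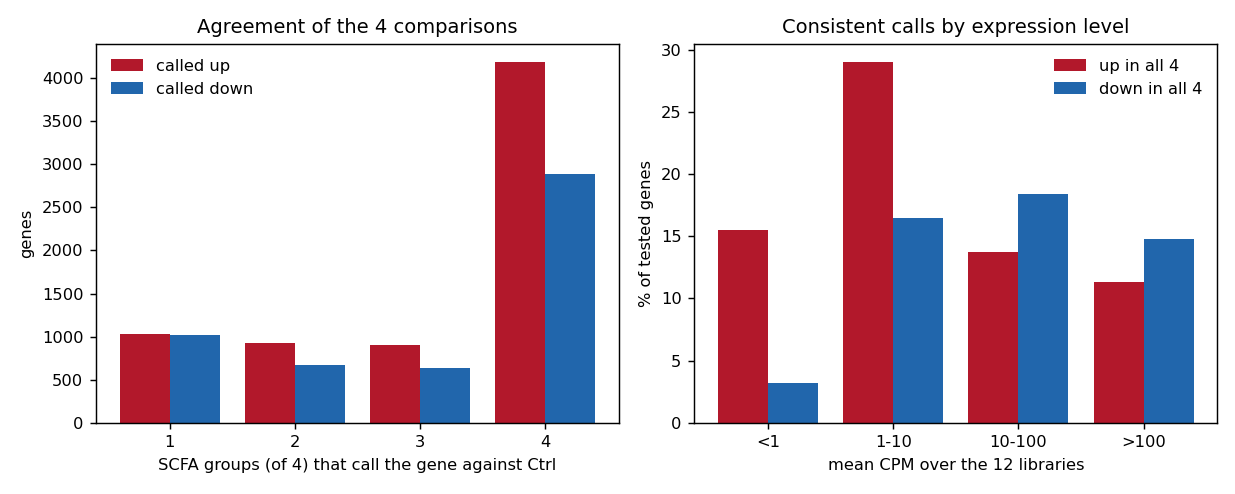
Left, number of tested genes by how many of the 4 SCFA groups called them against Ctrl (x axis), up in red and down in blue, leaving out the 3 genes called both ways. Right, percentage of tested genes called in all 4 groups, by mean CPM over the 12 libraries. The bars at 4 groups (4186 and 2884) are the tallest, and rises outnumber falls under 10 CPM but not above it.

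Consistent rises had a larger fitted median than falls and began from lower levels. The median consistent rise was 2.08 on the log2 scale (4.24-fold), with a median level of 0.673 CPM in Ctrl and 3.68 CPM in the SCFA libraries, and 639 genes rose over 16-fold. The median consistent fall was -1.14 (2.2-fold), from 28.6 to 12.4 CPM, and 27 genes fell over 16-fold. In TN the same genes had medians of 0.03 and -0.05, and 98.2% of the genes above Ctrl and 96.9% of those below it were not called in TN. Both shares lie near that of all tested genes, of which 24026 of 24342 were not called in TN. The filter on low counts and the mean level both pool all 12 libraries, 8 of them with SCFA, so a gene silent in Ctrl was tested only through the libraries that held it, and the excess of rises at low level is in part set by this. Among genes under 1 CPM on average there were 4.87 consistent rises for each fall, between 1 and 10 CPM 1.76, between 10 and 100 CPM 0.742 and over 100 CPM 0.765. No count was seen in either Ctrl library for 598 of the genes above Ctrl (14.3%), and 1125 (26.9%) had under 3 counts in both. Their fold changes are poorly determined, yet they enter the median rise and the number over 16-fold without a bound. The sizes of rises and falls are therefore not measured alike. Of protein-coding genes 20.9% rose and 14.8% fell in all 4 groups, of long non-coding RNA genes 13.4% and 7.15%, and of pseudogenes 5.12% and 4.8%.

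The 4186 genes above Ctrl held 5.5% and 5.57% of all counts in the Ctrl libraries and 14% to 15.3% in the SCFA libraries. The 2884 genes below it went from 21.2% and 21.5% to between 10.2% and 11.6%. Both TN libraries lay beside Ctrl, with 5.68% and 5.7% for the first set. These shares follow from how the genes were chosen and describe how much of the transcript pool they take up. In RNA from bulk cultures, fewer cells of a kind and less RNA per cell cannot be told apart.

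**Figure D2:**
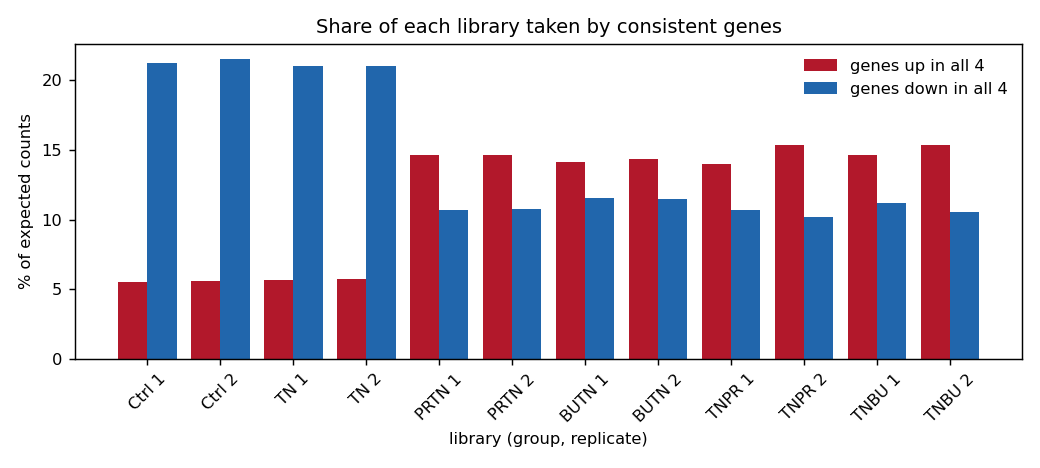
Percentage of each library's expected counts (y axis) held by the genes above Ctrl in all 4 SCFA groups (red) and below it in all 4 (blue), for each of the 12 libraries. In Ctrl and TN the blue bar is near 21% and the red near 5.5%, while in all 8 SCFA libraries the red bar is the taller.

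Promoter sequence is shown for 5 genes on which the cell cycle and cytokine results below turn: 3 mitotic genes that fell (CCNB1, PLK1, KIF20A), the cell cycle inhibitor CDKN1A and the chemokine CCL20, both of which rose. Each run holds the 250 bases before the RefSeq transcription start on GRCh38.p14, plus strand, and lies at chr5:69166900-69167149, chr16:23678639-23678888, chr5:138178862-138179111, chr6:36678464-36678713 and chr2:227813592-227813841 in that order. Capitals mark the GC box with letters GGGCGG, the letters CCAAT of the box of that name, the TATA box with letters TATAAA, the core TTTGAA of the cell cycle homology region and the κB site (3 G, any 2 bases, 3 T and 2 C), all searched on both strands and allowed to overlap.
CCNB1: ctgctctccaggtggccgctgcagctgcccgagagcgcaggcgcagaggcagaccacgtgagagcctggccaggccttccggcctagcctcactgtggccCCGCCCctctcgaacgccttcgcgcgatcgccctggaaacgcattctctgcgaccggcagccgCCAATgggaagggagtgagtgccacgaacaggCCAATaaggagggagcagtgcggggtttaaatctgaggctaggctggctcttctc
PLK1: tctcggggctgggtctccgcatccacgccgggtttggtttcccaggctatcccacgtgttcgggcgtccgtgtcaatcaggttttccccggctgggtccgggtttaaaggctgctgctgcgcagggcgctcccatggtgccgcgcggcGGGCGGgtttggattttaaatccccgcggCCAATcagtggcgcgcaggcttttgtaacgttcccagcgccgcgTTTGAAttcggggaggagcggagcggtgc
KIF20A: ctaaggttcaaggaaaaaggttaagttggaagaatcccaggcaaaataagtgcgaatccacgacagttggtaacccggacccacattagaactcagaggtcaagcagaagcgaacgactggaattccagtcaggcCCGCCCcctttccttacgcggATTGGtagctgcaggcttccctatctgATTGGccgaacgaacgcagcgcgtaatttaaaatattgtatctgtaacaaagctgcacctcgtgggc
CDKN1A: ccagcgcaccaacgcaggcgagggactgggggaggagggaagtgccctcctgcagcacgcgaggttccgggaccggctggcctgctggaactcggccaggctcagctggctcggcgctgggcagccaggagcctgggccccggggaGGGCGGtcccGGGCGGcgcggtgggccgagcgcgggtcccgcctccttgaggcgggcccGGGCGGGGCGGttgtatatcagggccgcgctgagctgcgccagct
CCL20: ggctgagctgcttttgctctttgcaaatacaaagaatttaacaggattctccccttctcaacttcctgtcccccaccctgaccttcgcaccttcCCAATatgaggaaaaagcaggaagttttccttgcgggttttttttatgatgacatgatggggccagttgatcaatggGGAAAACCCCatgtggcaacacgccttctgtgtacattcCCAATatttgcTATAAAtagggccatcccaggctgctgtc
The mitotic promoters held 1 or 2 CCAAT boxes each, and that of PLK1 also the cell cycle homology core, while that of CDKN1A held 4 GC boxes and no CCAAT box. The CCL20 promoter was the only run of the 5 with a κB site or a TATA box. Promoters were found for 12897 of 24276 tested symbols. CCAAT stood in 34.5% of them, in 35.5% of those above Ctrl in all 4 groups, in 31.2% of those below it and in 76.9% of 39 mitotic promoters. TTTGAA stood in 8.84%, 7.49%, 9.54% and 56.4% in the same order. The GC box stood in 62.8% of the promoters of tested genes, the κB site in 1.95% and the TATA box in 6.26%. Over all 27305 promoters of the table, CCAAT stood in 33%, TTTGAA in 13.6%, the GC box in 42.3%, the κB site in 1.73% and the TATA box in 11.1%. A match describes these letters only and is not evidence of a bound factor.

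Gene lists are described below by the number of tested members above or below Ctrl in all 4 groups and by the median log2 fold change of the mean of the 4 SCFA groups over Ctrl. Among all tested genes the same figures were 17.2% up, 11.8% down and a median of 0.06. Unless stated otherwise a log2 change is that of the mean of the 4 groups, with its standard error (SE).

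**Figure D3:**
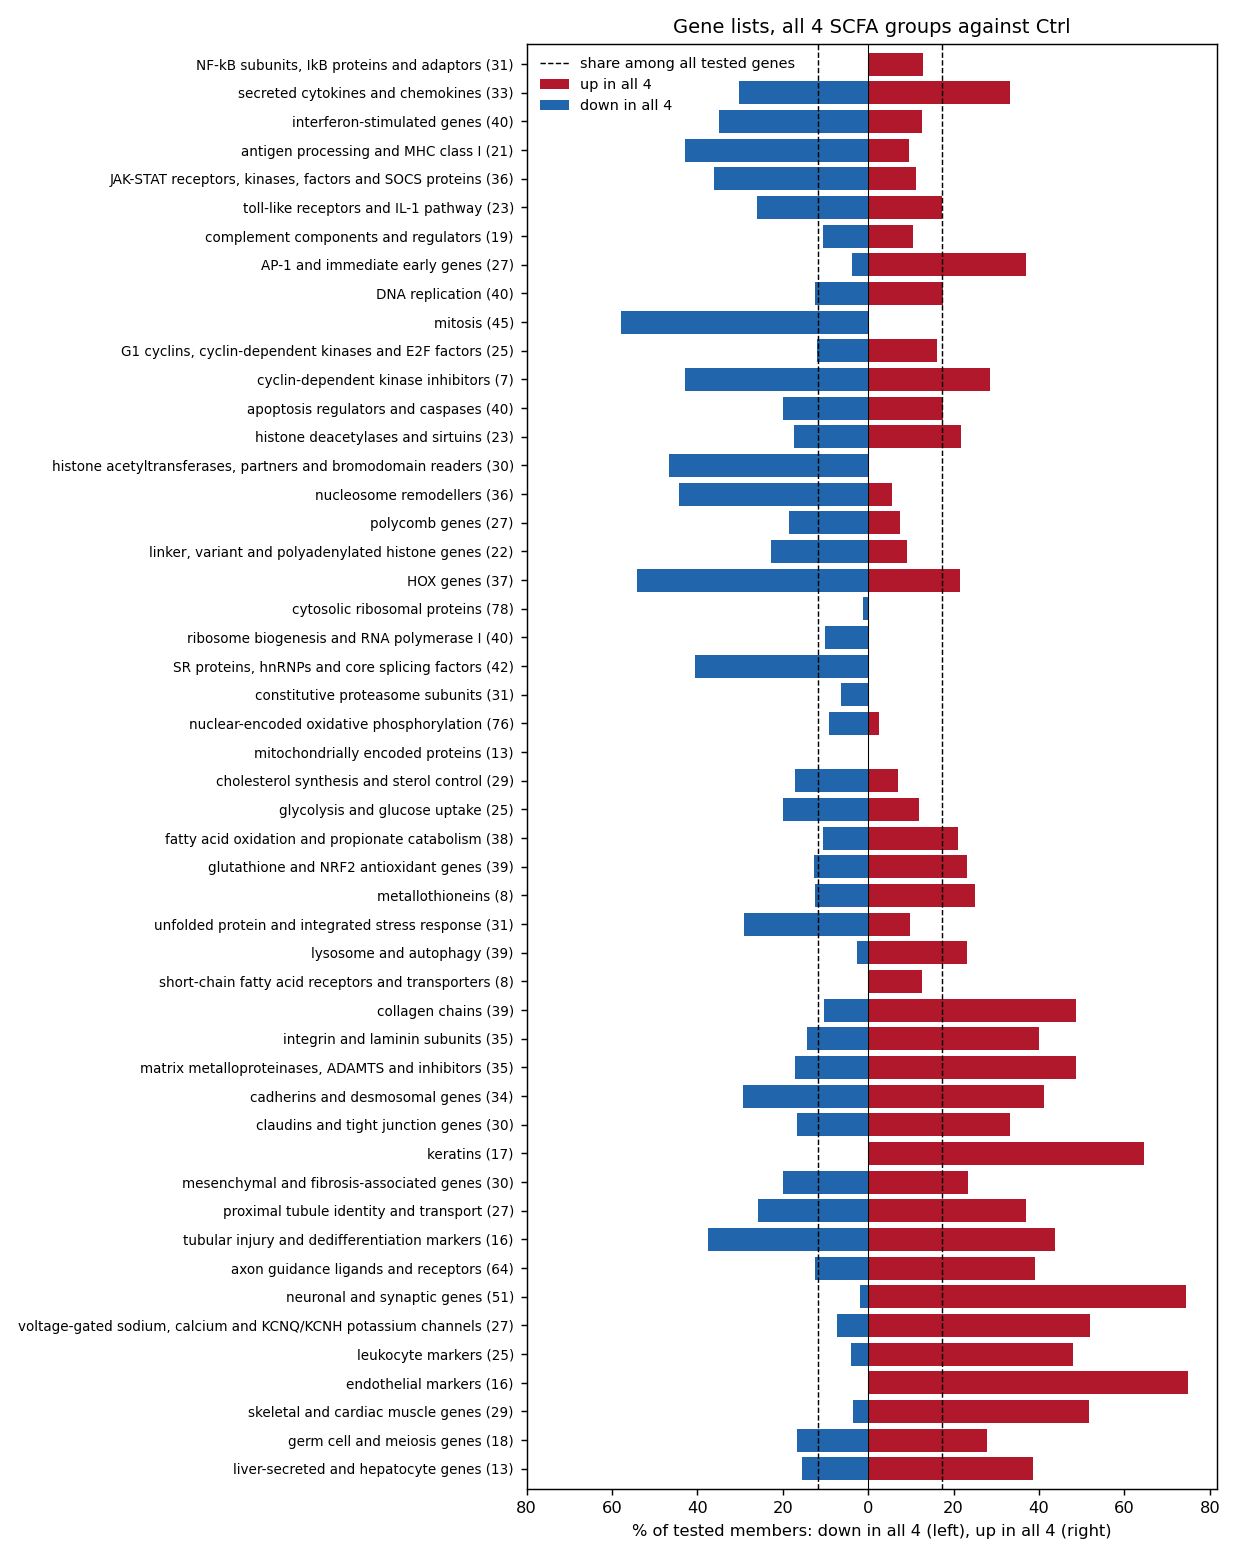
Percentage of the tested members of each of 50 gene lists (number of tested members in parentheses) that were below Ctrl in all 4 SCFA groups (blue, left) or above it in all 4 (red, right). Dashed lines give the shares among all tested genes (11.8% and 17.2%). Of the 45 tested mitosis genes 26 lie on the left and 0 on the right, and members silent in Ctrl were tested only through the libraries that held them, so the lists are not to be ranked.

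Genes of mitosis fell while those of DNA replication did not move as a group. Of 45 tested genes of mitosis 26 were below Ctrl in all 4 groups and 0 above it, with a median of -0.82 (TN, -0.01). Of 40 replication genes 7 rose and 5 fell, with a median of 0.00. Cyclin B1 (CCNB1; chr5:69167135-69178245, plus strand), which drives entry into mitosis, was at 176 and 166 CPM in Ctrl and at 50.3, 55.1 and 70.7 CPM (lowest, median and highest of the 8 SCFA libraries). No SCFA library reached either Ctrl or TN (176 and 169 CPM), and the log2 change was -1.57 (SE 0.05, adjusted p = 5.63e-11).

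The mitotic kinases followed the same course. PLK1, which acts on centrosomes and spindle, went from 136 and 133 CPM to 40.0, 45.3 and 57.6 CPM, a log2 change of -1.53 (SE 0.05). AURKA, a spindle pole kinase, went from 181 and 187 CPM to 49.4, 53.0 and 65.4 CPM, a log2 change of -1.74 (SE 0.05). KIF20A, a motor of cytokinesis, went from 144 and 135 CPM to 35.8, 43.4 and 55.5 CPM, a log2 change of -1.67 (SE 0.05). In all 3 genes the fall was smallest in BUTN, and no SCFA library reached Ctrl. Not every proliferation gene fell that far: the marker MKI67 changed by -0.79 (SE 0.09), while CDK1 (158 and 157 CPM in Ctrl, 108 to 141 CPM in the SCFA libraries) and the topoisomerase TOP2A (401 and 407 CPM, then 299 to 375 CPM) did not pass the fold threshold.

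Inhibitors of cyclin-dependent kinases moved in opposite directions, with 2 of 7 tested members above Ctrl and 3 below it. CDKN1A, which encodes p21 and halts the cycle (chr6:36676460-36687337, plus strand), was at 29.4 and 28.4 CPM in Ctrl, at 38.9 and 38.3 CPM in TN and at 227, 256 and 289 CPM in the SCFA libraries. All 8 SCFA libraries lay far above Ctrl and TN, a log2 change of 3.14 (SE 0.06, adjusted p = 6.19e-12). CDKN2D rose by 1.93 (SE 0.16), while CDKN1C changed by -1.28 (SE 0.08) and CDKN2A by -0.79 (SE 0.07). Of 25 G1 cyclins, cyclin-dependent kinases and E2F factors 4 rose (16%) and 3 fell (12%), with a median of 0.24. These shares lie near those of all tested genes (17.2% and 11.8%). Among the rises were the G1 cyclins CCND3 and CCNE1, by 1.14 (SE 0.06) and 1.10 (SE 0.06). The nucleotide synthesis enzymes of the S phase were split, since RRM2 rose by 1.16 (SE 0.06) and TYMS changed by -1.24 (SE 0.06).

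Regulators of chromatin fell more often than they rose. Of 30 histone acetyltransferases, their partners and bromodomain readers, 14 fell and 0 rose (median -0.64), and of 36 nucleosome remodellers 16 fell and 2 rose (median -0.60). The acetyltransferase CREBBP was at 81.9 and 98.8 CPM in Ctrl and at 29.1, 35.6 and 42.7 CPM with SCFA, a log2 change of -1.35 (SE 0.11), and its paralog EP300 changed by -1.03 (SE 0.12). KAT6B went from 45.3 and 46.0 CPM to 8.86, 9.26 and 12.3 CPM, a log2 change of -2.23 (SE 0.06). The groups did not overlap in any of these 3 genes. Among remodellers ARID1B, CHD3 and BAZ2B changed by -1.86, -1.82 and -2.26 (SE 0.08, 0.06 and 0.12).

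Of 23 tested members of the histone deacetylase and sirtuin families 5 were above Ctrl (21.7%) and 4 below it (17.4%), with a median of 0.09. Among all tested genes the shares were 17.2% and 11.8%, so the counts do not set the deacetylases apart. HDAC5 (class IIa) was at 17.5 and 16.2 CPM in Ctrl and at 36.6, 38.5 and 43.5 CPM with SCFA, and SIRT2 went from 15.4 and 15.4 CPM to 37.6, 46.1 and 54.4 CPM. HDAC7, also of class IIa, went from 152 and 143 CPM to 31.6, 37.7 and 46.4 CPM. These correspond to log2 changes of 1.22 (SE 0.08), 1.54 (SE 0.07) and -1.95 (SE 0.06). HDAC1, the class I enzyme, was at 320 and 305 CPM and then at 408 to 444 CPM, under the fold threshold.

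Of 22 linker, variant and polyadenylated histone genes 2 rose and 5 fell (median 0.22). Among those that fell H2AFY2, a macroH2A variant linked to silent chromatin, went from 68.1 and 69.6 CPM to 5.69, 9.32 and 12.4 CPM, a log2 change of -2.92 (SE 0.10).

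HOX genes, which set position along the body axis, fell in 20 of 37 tested members and rose in 8, with a median of -1.03 and a TN median of -0.23. HOXA9 was at 98.0 and 87.0 CPM in Ctrl and at 24.5, 27.2 and 31.5 CPM with SCFA (log2 change -1.75, SE 0.07), and HOXD10 went from 26.4 and 28.3 CPM to 3.20, 3.84 and 4.79 CPM (-2.81, SE 0.09). Among the members that rose were HOXA13 and HOXC13: HOXA13 went from 0.79 and 0.896 CPM to 4.13, 6.01 and 7.07 CPM (2.73, SE 0.23), and HOXC13 rose by 2.84 (SE 0.44). Of 27 polycomb genes 2 rose and 5 fell.

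Ribosomal protein genes gave almost no calls, while splicing factors were more often lower than higher. Of 78 cytosolic ribosomal protein genes 0 rose and 1 fell (RPL10, log2 change -1.05, SE 0.04), with a median of -0.09 that turned to 0.03 with library size alone as scaling. Of 42 SR proteins, hnRNPs and core splicing factors 17 fell and 0 rose, with a median of -0.63. The splice site factor U2AF2 went from 290.2 and 294 CPM to 95.9, 114 and 130 CPM, and HNRNPC from 655 and 632 CPM to 347, 355 and 368 CPM. Neither gene overlapped between the groups, with log2 changes of -1.35 (SE 0.06) and -0.85 (SE 0.04). UBTF, an RNA polymerase I factor, changed by -2.15 (SE 0.06) among 40 ribosome biogenesis genes of which 4 fell and 0 rose. Of 31 constitutive proteasome subunits 2 fell.

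Inflammatory genes did not return to Ctrl as a group but ended on either side of it. Of 33 tested cytokine and chemokine genes, from 37 listed, 11 were above Ctrl in all 4 SCFA groups and 10 below it, with a median of -0.40 where that of TN was 0.74. Of the 33, 23 were at 1 CPM or more in Ctrl and 24 with SCFA. More of the rises than of the falls were of members under 1 CPM, which could pass the filter through the SCFA libraries. Of the 186 genes called up by TNF-α alone, 54 (29%) were above Ctrl in all 4 SCFA groups, 39 (21%) were below it, 39 were called in no SCFA group and 54 in some of them. Of the 130 genes called down by TNF-α alone 21 (16.2%) were above Ctrl and 50 (38.5%) below it. These sets and the SCFA groups were compared with the same Ctrl libraries, and the sets themselves shrink to 118 and 50 genes at the least when a library is left out.

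Cytokines below the untreated level included those that act on myeloid cells. CSF2, the granulocyte-macrophage growth factor GM-CSF, was at 48.8 and 51.1 CPM in Ctrl, at 119 and 118 CPM in TN and at 0.672, 2.20 and 4.04 CPM in the SCFA libraries. All 8 SCFA libraries lay far below Ctrl and TN, a log2 change of -4.66 (SE 0.23, adjusted p = 3.04e-09). CSF1, the macrophage growth factor, went from 153 and 138 CPM to 13.5, 19.4 and 34.2 CPM (-2.84, SE 0.09), with 271 and 298 CPM in TN. IL6 went from 34.2 and 41.3 CPM to 9.69, 10.96 and 17.3 CPM (-1.67, SE 0.08), with 112 and 109 CPM in TN. All 3 genes were thus called up by TNF-α alone and down with SCFA. TNFSF10, the death ligand TRAIL, went from 422 and 383 CPM to 19.1, 35.0 and 51.9 CPM (-3.56, SE 0.17), and CLCF1, a cytokine of the IL-6 family, changed by -3.75 (SE 0.07). CXCL2 and LIF, chosen after their values were seen, changed by -1.35 (SE 0.15) and -1.38 (SE 0.07).

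Other cytokines stood above the untreated level. CCL20 (chr2:227805739-227817564, plus strand), the ligand of CCR6 on lymphocytes and dendritic cells, was at 57.5 and 55.6 CPM in Ctrl, at 212 and 216 CPM in TN and at 596, 841 and 1041 CPM in the SCFA libraries. TNF itself was at 3.02 and 3.73 CPM in Ctrl, at 11.5 and 10.8 CPM in TN and at 29.5, 75.0 and 107 CPM with SCFA. The lowest SCFA library was above both TN libraries for either gene, and their log2 changes over Ctrl were 3.85 (SE 0.10) and 4.20 (SE 0.50). CXCL5, a neutrophil chemokine chosen after its values were seen, went from 3.24 and 3.85 CPM to 12.9, 29.8 and 52.6 CPM (2.97, SE 0.11), with 14.01 and 14.3 CPM in TN.

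**Figure D4:**
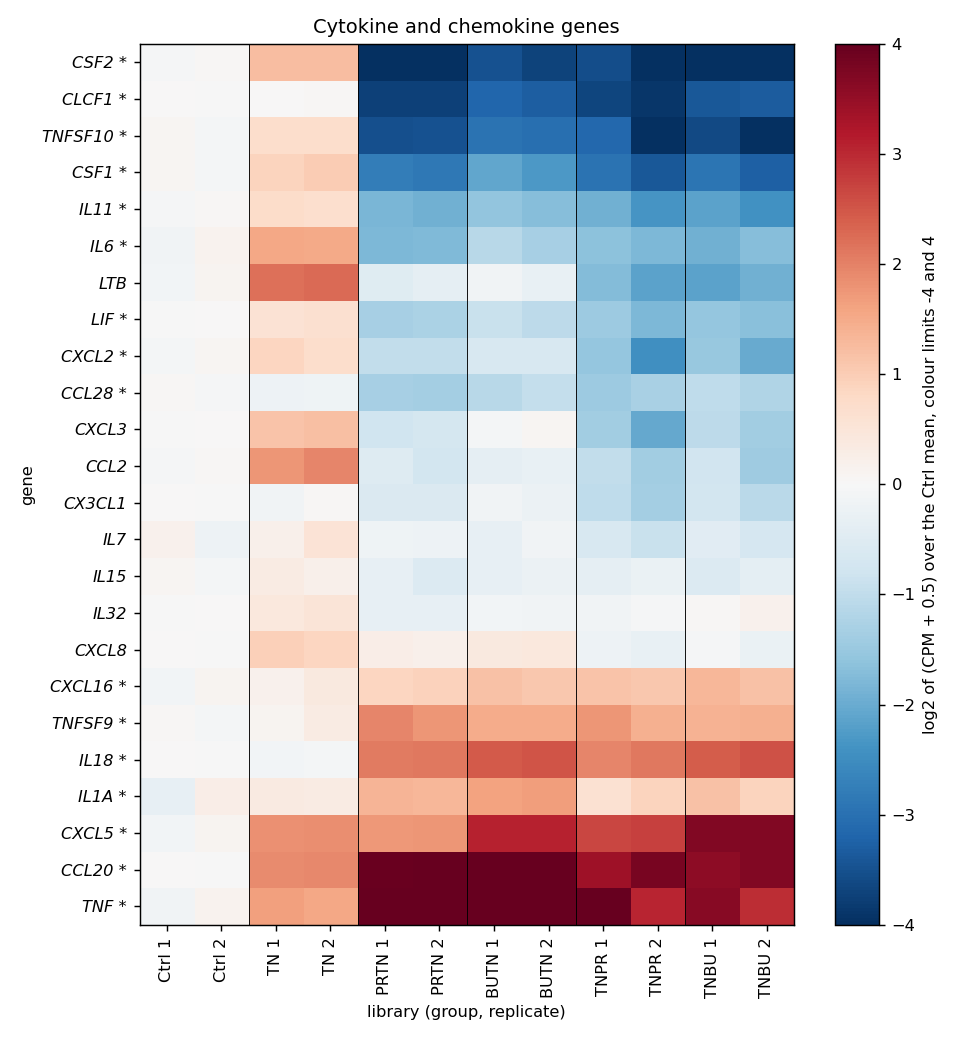
Log2 of CPM with 0.5 added, relative to the Ctrl mean, for the cytokine and chemokine genes at 1 CPM or more (rows) in each of the 12 libraries (columns). An asterisk marks genes called the same way in all 4 SCFA groups, and colours stop at -4 and 4. CSF2, CSF1 and IL6 are red in TN and blue in all 8 SCFA libraries, while CCL20 and TNF are red in TN and deeper red with SCFA.

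The chemokines CXCL8 and CCL2, which TNF-α alone raised, had no consistent call. CXCL8, which recruits neutrophils, was at 948 and 929 CPM in Ctrl, at 1806 and 1712 CPM in TN and at 770.4, 987 and 1257 CPM with SCFA, so that the groups overlapped (log2 change 0.06, SE 0.05, adjusted p = 0.342). CCL2, which recruits monocytes, was at 4.81 and 5.16 CPM in Ctrl, at 18.1 and 20.6 CPM in TN and at 1.56, 2.75 and 3.99 CPM with SCFA.

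Of 31 NF-κB subunits, IκB proteins and adaptors, 4 were above Ctrl in all 4 groups and 0 below it (median -0.02, or 0.10 with library size alone as scaling; TN, 0.22 with 10 genes up). BIRC3, a ubiquitin ligase that restrains cell death, was at 240.3 and 236 CPM in Ctrl, at 504 and 469 CPM in TN and at 668, 999.8 and 1314 CPM with SCFA, a log2 change of 1.99 (SE 0.07). MAP3K14, the kinase of the alternative pathway, rose by 1.19 (SE 0.07) and was not called in TN. NFKBIA, the first inhibitor induced by the pathway, was at 192 and 187 CPM in Ctrl, at 305 and 322 CPM in TN and at 69.5, 109 and 141 CPM with SCFA. NFKB1 was at 73.0 and 76.2 CPM in Ctrl and at 29.8, 43.1 and 65.2 CPM with SCFA. TNFAIP3, which encodes the inhibitor A20, was at 109 and 112 CPM in Ctrl, at 480 and 498 CPM in TN and at 153, 201 and 288 CPM with SCFA. For these 3 genes all SCFA libraries lay on a single side of Ctrl, yet at least 1 group missed the fold threshold.

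Adhesion molecules and other targets of TNF-α were divided in the same way. ICAM1, which binds leukocytes, was at 159 and 169 CPM in Ctrl, at 437 and 478 CPM in TN and at 295, 490 and 838 CPM with SCFA (log2 change 1.56, SE 0.05). VCAM1 went from 3.12 and 2.76 CPM in Ctrl and 7.89 and 7.47 CPM in TN to 0.0867, 0.184 and 0.282 CPM (-4.01, SE 0.27). TNFAIP2 was above Ctrl in BUTN and below it in TNPR and TNBU, with SCFA libraries from 66.4 to 392 CPM around the Ctrl values of 237 and 229 CPM. TNFRSF1B, the second TNF-α receptor, rose by 3.93 (SE 0.28) from 0.446 and 0.896 CPM, and CFLAR, an inhibitor of caspase 8 activation, changed by -1.60 (SE 0.05). Over 40 apoptosis regulators 7 rose and 8 fell, and the survival gene BCL2 changed by -0.85 (SE 0.07). BCL2A1, a target of NF-κB that opposes cell death, was at 0.0364 and 0 CPM in Ctrl, at 1.38 and 1.23 CPM in TN and at 0.528, 1.15 and 1.80 CPM with SCFA. The SCFA libraries lay around the TN values, a ratio of 67.9 over Ctrl (12.2 to 2680, the 95% exact Poisson interval of the Ctrl counts, counting error only). SOD2, the manganese superoxide dismutase that TNF-α induces, was at 1313 and 1327 CPM in Ctrl, at 3292 and 3281 CPM in TN and at 584, 689 and 804 CPM with SCFA (-0.95, SE 0.05).

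Further genes that TNF-α alone raised were chosen after their values were seen. CYP24A1, the enzyme that inactivates vitamin D, was at 38.9 and 42.8 CPM in Ctrl, at 63.6 and 65.0 CPM in TN and at 393, 452 and 496 CPM with SCFA. The plasminogen activator PLAT rose by 3.78 (SE 0.11), the proteoglycan SDC4 by 1.92 (SE 0.07) and the receptor TNFRSF9 by 1.89 (SE 0.06). AMIGO2, an adhesion protein, was at 317 and 323 CPM in Ctrl, at 641 and 645 CPM in TN and at 54.9, 70.2 and 86.9 CPM with SCFA, so it lay above Ctrl in TN and below it in all 8 SCFA libraries.

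Interferon-stimulated genes and the JAK-STAT pathway were more often lower than higher. Of 40 tested interferon-stimulated genes 14 fell and 5 rose (median -0.32; TN, 0.06), of 36 JAK-STAT genes 13 fell and 4 rose (median -0.46) and of 21 genes of antigen processing and MHC class I 9 fell and 2 rose (median -0.33). GBP1, an interferon-induced GTPase, went from 19.6 and 18.9 CPM to 1.94, 2.45 and 3.09 CPM (-2.95, SE 0.10), with 39.2 and 36.2 CPM in TN. All 8 SCFA libraries lay below Ctrl and TN. JAK1, STAT6 and JAK3 changed by -1.19, -2.01 and -2.59 (SE 0.06, 0.07 and 0.10), while STAT3 rose by 1.08 (SE 0.05).

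Rises within the interferon list were those of IFI6, from 5.12 and 5.56 CPM to 38.6, 39.8 and 42.5 CPM (2.91, SE 0.10), and the ubiquitin-like modifier ISG15, from 16.3 and 15.4 CPM to 37.4, 42.1 and 45.2 CPM (1.40, SE 0.08), with 3 more genes. PSMB10, a subunit of the immunoproteasome, went from 36.1 and 35.6 CPM to 2.70, 3.41 and 4.44 CPM (-3.39, SE 0.08), whereas B2M, the light chain of MHC class I, rose by 0.75 (SE 0.06). Of 23 tested genes of toll-like receptors and the IL-1 pathway, from 25 listed, 4 rose and 6 fell (median -0.31; -0.49 with genes of no Ctrl count at their bound). The kinase IRAK1 was among the latter, from 238 and 252 CPM to 44.6, 51.3 and 61.0 CPM (-2.24, SE 0.05).

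AP-1 and immediate early genes rose in 10 of 27 members and fell in 1 (median 0.67). JUN was at 268 and 304 CPM in Ctrl and at 450, 562 and 683 CPM with SCFA (0.98, SE 0.08), and the phosphatase DUSP6 went from 16.9 and 15.7 CPM to 71.4, 81.4 and 105 CPM (2.37, SE 0.10). The member that fell was FOSL1, from 42.2 and 49.2 CPM to 8.60, 14.8 and 18.3 CPM (-1.79, SE 0.13), which TNF-α alone had raised to 84.7 and 70.4 CPM.

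Epithelial genes shifted in kind rather than in a single direction. Keratins rose in 11 of 17 tested members, from 24 listed, and fell in 0, with a median of 3.54 (3.45 with the gene of no Ctrl count at its bound). Only 8 of the 17 were at 1 CPM or more in Ctrl, and 12 with SCFA. Members near 0 in Ctrl could pass the filter through the SCFA libraries, where few falls can be seen, so count and median are in part set by this. The summed level of the list was 1460 to 1480 CPM in Ctrl and 2120 to 2960 CPM with SCFA. KRT19, a keratin of simple and ductal epithelium (chr17:41523617-41528308, minus strand), was at 5.15 and 4.62 CPM in Ctrl and at 82.3, 104 and 121 CPM with SCFA (4.37, SE 0.09). The TN libraries stood at 4.47 and 4.59 CPM, beside Ctrl. KRT18 rose by 0.83 (SE 0.04), and KRT7 was at 94.8 and 99.5 CPM and then at 90.7 to 103 CPM. KRT17, chosen after its values were seen, rose by 4.33 (SE 0.24).

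Cadherin and desmosomal genes moved both ways, with 14 of 34 tested members above Ctrl and 10 below it. Their summed level was 3460 to 3790 CPM in Ctrl and 1760 to 2180 CPM with SCFA. CDH1, the E-cadherin of epithelial junctions (chr16:68737292-68835537, plus strand), was at 0.24 and 0.294 CPM in Ctrl and at 8.37, 12.8 and 14.4 CPM with SCFA (5.39, SE 0.49). CDH2, N-cadherin, which proximal tubule cells carry, went from 275 and 280.0 CPM to 142, 149 and 160.0 CPM (-0.89, SE 0.04). It remained above CDH1 in every SCFA library. CDH6, the cadherin of the developing proximal tubule (chr5:31193686-31329146, plus strand), went from 1091 and 1122 CPM to 37.8, 53.8 and 84.4 CPM (-4.32, SE 0.11). TN lay at 744 and 756 CPM for CDH6, below Ctrl and far above every SCFA library. CDH16, the kidney-specific cadherin, changed by -2.44 (SE 0.10).

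Tight junction genes gave 10 rises and 5 falls among 30. CLDN2, the pore-forming claudin of the proximal tubule (chrX:106900164-106930861, plus strand), was at 200.3 and 179.9 CPM in Ctrl, at 179 and 192 CPM in TN and at 1.53, 4.43 and 8.78 CPM with SCFA. This fall, -5.50 (SE 0.25, adjusted p = 1.74e-09), was the largest of the genes named by rule. The junctional proteins CGN, TJP3 and OCLN rose by 3.53 (SE 0.08), 2.97 (SE 0.17) and 1.71 (SE 0.13). The epithelial adhesion molecule EPCAM changed by -1.61 (SE 0.10).

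Of 27 tested genes of proximal tubule identity and transport, from 33 listed, 10 rose and 7 fell (median 0.81). The lineage factor PAX8 fell to 128, 150.2 and 160.1 CPM (-1.31, SE 0.04), and GGT1 fell as well (-1.71, SE 0.06). Rises began near 0: the water channel AQP1 went from 0.721 and 0.359 CPM to 5.98, 8.79 and 15.1 CPM (4.12, SE 0.28). LRP2 and the peptidase MME, with no count in Ctrl or TN, reached at most 0.991 and 0.927 CPM and were at least 6.32-fold and 5.99-fold higher (3 counts in each Ctrl library as the floor). The peptidase DPP4, at 95.2 and 89.6 CPM in Ctrl and at 84.9 to 109 CPM with SCFA, was not called.

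Markers of tubular injury were also divided, with 7 of 16 above Ctrl and 6 below it. HAVCR1, which encodes KIM-1, was at 197 and 205 CPM in Ctrl and at 36.7, 55.8 and 65.9 CPM with SCFA (-1.93, SE 0.11), and SPP1, osteopontin, went from 387 and 356 CPM to 99.1, 109 and 114 CPM (-1.78, SE 0.05). Clusterin (CLU), a secreted chaperone, went from 19.1 and 16.9 CPM to 275, 310.4 and 350 CPM (4.10, SE 0.13). None of the 3 genes was called in TN. LCN2, the gene of NGAL, was at 130 and 124 CPM in Ctrl and spread from 124 to 839 CPM over the SCFA libraries, with a log2 change of 0.01 for PRTN, 0.85 for BUTN, 1.89 for TNPR and 2.69 for TNBU.

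**Figure D5:**
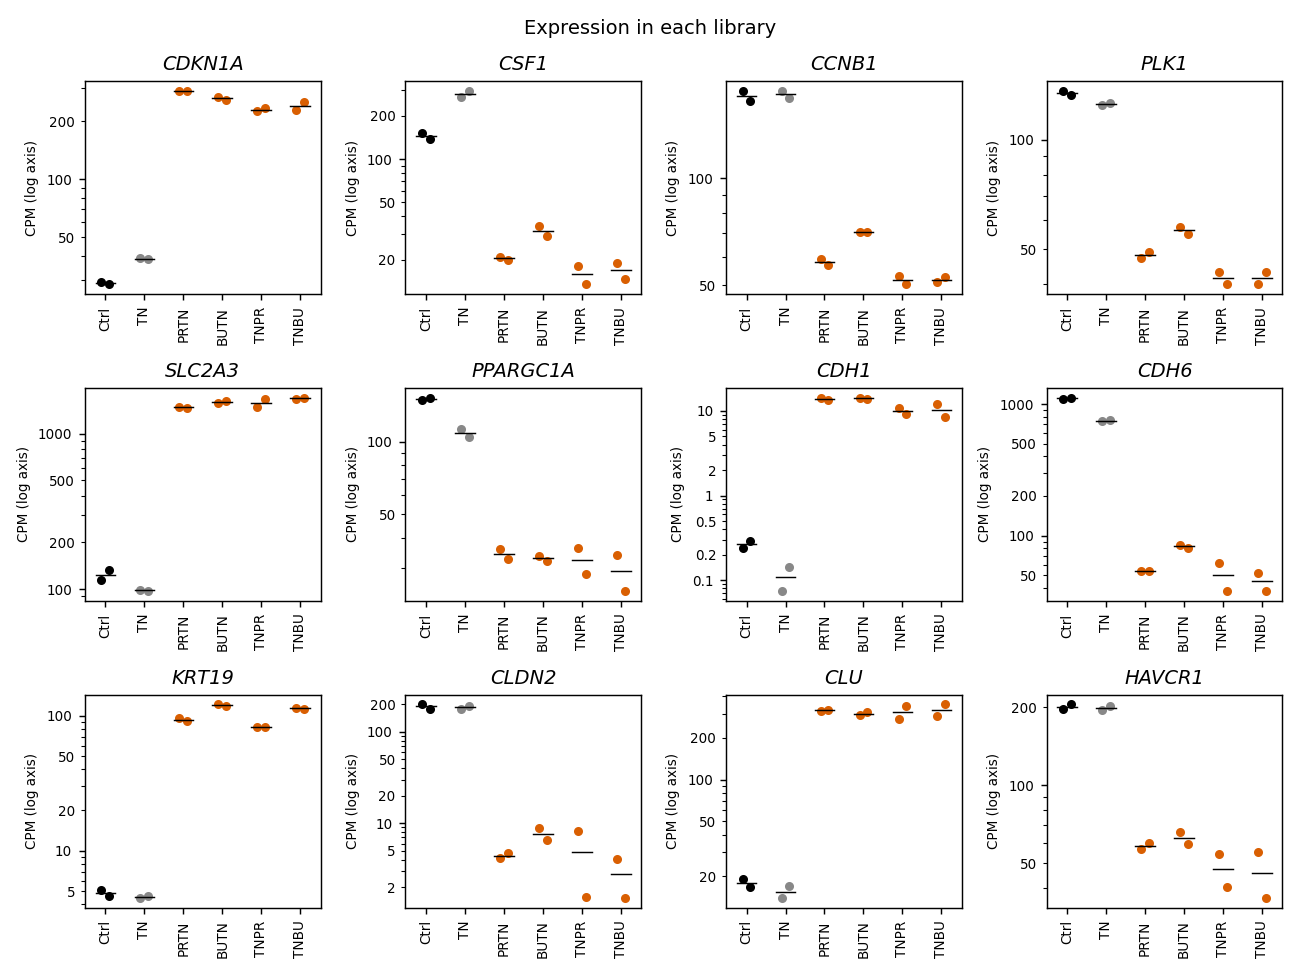
CPM (log axis, scaled for each gene) of 12 genes in every library. Each point is a library and each bar the mean of a group (Ctrl black, TN grey, SCFA groups orange). In each panel the 8 orange points lie wholly above or wholly below the black ones, as for CDKN1A (227 to 289 against 29.4 and 28.4 CPM) and CLDN2 (1.53 to 8.78 against 200.3 and 179.9 CPM).

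Matrix and adhesion genes rose more often than they fell. The summed levels of the collagen list and of the integrin and laminin list were nevertheless lower in the SCFA libraries, without a test. Of 39 tested collagen chains 19 rose and 4 fell (median 1.51; 0.79 with genes of no Ctrl count at their bound), of 35 integrin and laminin subunits 14 and 5 (median 0.63) and of 35 matrix metalloproteinases, ADAMTS proteases and inhibitors 17 and 6 (median 0.92). The summed level of the collagen list was 8710 to 8870 CPM in Ctrl and 5540 to 6900 CPM with SCFA. That of the integrin and laminin list was 6920 to 7280 CPM and then 5280 to 6080 CPM. For the metalloproteinase list it was 2100 to 2120 CPM and then 1930 to 2150 CPM. COL4A1, a chain of basement membrane collagen, went from 2192 and 2304 CPM to 871, 1002 and 1168 CPM (-1.17, SE 0.04). COL1A1, of fibrillar collagen, went from 48.5 and 48.1 CPM to 146, 177 and 202 CPM (1.85, SE 0.08). MMP7, a protease linked to tubular injury, went from 611 and 588 CPM to 76.6, 146 and 223 CPM (-2.10, SE 0.24), with 885 and 939 CPM in TN. ITGB6, the epithelial integrin subunit that activates latent TGF-β, changed by -3.83 (SE 0.08), and ITGA7 rose by 3.42 (SE 0.17).

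Mesenchymal and fibrosis-associated genes gave 7 rises and 6 falls among 30 (median 0.19). The transcription factor SNAI1 and the contractile protein gene CNN1 rose by 1.55 (SE 0.08) and 2.79 (SE 0.20), the latter from 8.24 and 8.32 CPM to 42.4, 58.5 and 69.6 CPM. The collagen cross-linking enzyme LOX went from 141 and 145 CPM to 42.7, 49.2 and 58.0 CPM (-1.52, SE 0.05), and the receptor kinase AXL from 209 and 212 CPM to 54.5, 58.4 and 61.4 CPM (-1.85, SE 0.05). Vimentin (VIM) was at 1572 and 1588 CPM in Ctrl and at 1278 to 1967 CPM with SCFA, and fibronectin (FN1), with a log2 change of -0.68 (SE 0.11), missed the threshold in at least 1 group.

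Metabolic lists held calls in both directions. SLC2A3, the high-affinity glucose transporter GLUT3 (chr12:7919230-8019007, minus strand), was at 114 and 132 CPM in Ctrl, at 99.1 and 97.1 CPM in TN and at 1469, 1598 and 1709 CPM with SCFA (3.69, SE 0.06, adjusted p = 5.71e-12). SLC2A1, the general glucose transporter, was at 531 and 556 CPM and then at 394 to 446 CPM, without a call. Over 25 genes of glycolysis and glucose uptake 3 rose and 5 fell. PPARGC1A, the coactivator of mitochondrial biogenesis, went from 149 and 153 CPM to 23.9, 32.9 and 36.2 CPM (-2.25, SE 0.10), yet of 76 nuclear genes of oxidative phosphorylation 2 rose and 7 fell (median -0.11; 0.01 with library size alone as scaling). SLC7A5, a transporter of large neutral amino acids, went from 155 and 179 CPM to 588, 670.4 and 806 CPM (2.03, SE 0.12), and TN stood between at 230.1 and 285 CPM. Fatty acid oxidation and propionate catabolism gave 8 rises and 4 falls among 38, cholesterol synthesis and sterol control 2 and 5 among 29.

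Stress and clearance lists gave rises as well as falls. Of 31 genes of the unfolded protein and integrated stress response 9 fell and 3 rose (median -0.31), among them XBP1 from 83.4 and 79.9 CPM to 21.2, 24.4 and 29.2 CPM (-1.71, SE 0.05), ATF4 (-1.09, SE 0.05) and ATF5 (-2.51, SE 0.07). Of 39 lysosome and autophagy genes 9 rose (23.1%) and 1 fell (2.56%), with a median of 0.15, against 17.2% and 11.8% of all tested genes. The sialidase NEU1 was at 113 and 108 CPM and then at 228, 260 and 312 CPM (1.25, SE 0.07). Other members lay lower in all 8 SCFA libraries: SQSTM1 went from 270 and 273 CPM to between 111 and 198 CPM, and CTSD from 639 and 627 CPM to between 414 and 523 CPM. LAMP1 was at 345 and 349 CPM and then at 357 to 389 CPM. Among 39 glutathione and NRF2 antioxidant genes 9 rose and 5 fell: the secreted glutathione peroxidase GPX3, made by the proximal tubule, went from 47.7 and 45.4 CPM to 206, 241 and 276 CPM (2.39, SE 0.08), and NQO1 changed by -1.39 (SE 0.06). Metallothioneins gave 2 rises and 1 fall among 8.

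Of 13 SCFA receptors and transporters 8 were tested, with 1 above Ctrl in all 4 groups and 0 below it. It was BSG, the chaperone of monocarboxylate transporters, at 521 and 514 CPM and then at 848, 929 and 985 CPM (0.82, SE 0.05). The transporter SLC16A1, through which propionate and butyrate pass, was at 306 and 311 CPM and then at 282 to 320 CPM. The receptor FFAR2 stayed between 0.03 and 0.265 CPM in all 10 libraries.

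Many genes that mark other lineages were above Ctrl in all 4 groups, mostly from very low levels. A member without counts in Ctrl passed the filter on low counts only through the libraries that held it, so the counts below describe the tested members and support no comparison with other lists. Of 51 tested neuronal and synaptic genes, from 59 listed, 38 rose and 1 fell (median 2.27; 2.21 with genes of no Ctrl count at their bound), while the summed level of the list went from 1380 to 1390 CPM in Ctrl to between 1640 and 1740 CPM. ELAVL3, a neuronal RNA-binding protein, had 0 and 0.0359 CPM in Ctrl and 5.83, 6.80 and 9.70 CPM with SCFA, a ratio of 418 (95% exact Poisson interval of the Ctrl counts 75.1 to 16530, counting error only). TUBB3, which supplied most of the summed level at 398 and 417 CPM in Ctrl, was at 457 to 523 CPM with SCFA and was not called. SNAP25, of the vesicle fusion complex, went from 5.80 and 5.56 CPM to 14.05, 16.0 and 22.6 CPM (1.57, SE 0.15), and the neurofilament NEFH was the member that fell (-0.999, SE 0.04).

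Ion channels and guidance cues of neurons gave both rises and falls. The summed level of the channel list was 64.5 to 71.7 CPM in Ctrl and 180 to 211 CPM with SCFA. That of the axon guidance list was 3150 to 3240 CPM in Ctrl and 2590 to 3110 CPM with SCFA, with 43 of its 64 tested members at 1 CPM or more in Ctrl. Of 27 tested voltage-gated channel genes, from 32 listed, 14 rose and 2 fell (median 2.33). Of 64 axon guidance genes 25 rose and 8 fell (median 0.48), with EPHB3 up by 4.87 (SE 0.45) from 0.24 and 0.108 CPM and PLXNB1 changed by -2.38 (SE 0.06) from 105 and 105 CPM.

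Leukocyte markers rose in 12 of 25 tested members, from 34 listed, and fell in 1 (median 2.17; 2.04 at the bound), and the list summed to 21.1 to 23 CPM in Ctrl and 59.2 to 77.4 CPM with SCFA. The defining leukocyte gene PTPRC was at or near 0 throughout, at most 0.152 CPM. CORO1A, an actin regulator of leukocytes, went from 0.784 and 1.00 CPM to 22.4, 26.1 and 29.7 CPM (4.83, SE 0.21). The T cell kinase LCK rose as well, from 1.27 and 1.29 CPM to 4.24, 5.59 and 7.98 CPM (2.13, SE 0.17). Endothelial markers rose in 12 of 16 tested members, from 21 listed, and fell in 0 (median 2.09; 1.78 at the bound; sum 124 to 126, then 174 to 204 CPM), with the endothelial receptor KDR at 0 in Ctrl and at most 0.0939 CPM. Other defining endothelial genes rose from a few counts, all called in all 4 groups: the adhesion molecule PECAM1 to between 0.48 and 1.09 CPM, the cadherin CDH5 to between 0.868 and 1.83 CPM and the clotting factor carrier VWF to between 0.701 and 1.28 CPM. Their ratios over Ctrl were 13.1 (4.48 to 63.5), 13.4 (6.14 to 36.4) and 26.7 (7.38 to 220.1), with the same kind of interval. Whether other cells had a part in these rises was not tested. Skeletal and cardiac muscle genes rose in 15 of 29 tested members, from 41 listed, and fell in 1 (median 2.34; 2.03 at the bound; sum 76.3 to 81.3, then 149 to 194 CPM), with the troponin gene TNNI3 at a ratio of 55.9 (25.7 to 152), while cardiac myosin MYH7 was at 0 in Ctrl and at most 0.116 CPM.

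Not every foreign lineage was higher in sum. Of 18 tested germ cell and meiosis genes, from 36 listed, 5 rose and 3 fell (median 0.35; -0.13 at the bound), and DAZL had no count in any library. Of 13 tested liver genes, from 25 listed, 5 rose and 2 fell (median 1.71; 0.66 at the bound), their sum was 83.5 to 88.6 CPM in Ctrl and 57.3 to 72.5 CPM with SCFA, and albumin (ALB) reached at most 0.032 CPM.

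The largest rises named by rule included genes with few or no counts in Ctrl. ATCAY, a gene of cerebellar neurons (chr19:3879864-3928082, plus strand), had no count in Ctrl and 8.41, 10.2 and 13.6 CPM with SCFA, at least 99.6-fold higher. CACNA1G, a T-type calcium channel, had 2 counts in Ctrl in all (0.0687 and 0 CPM) and 12.5, 15.6 and 16.9 CPM with SCFA, a ratio of 432 (119.5 to 3564). SLC17A7, the vesicular glutamate transporter, gave 349 (136 to 1282), COL5A3 294 (101 to 1427) and ZCCHC12 212 (97.3 to 577), each as a ratio with its counting interval. CPA4, a carboxypeptidase gene induced by inhibitors of histone deacetylases (chr7:130293134-130324180, plus strand), was counted in Ctrl at 1.75 and 1.54 CPM and reached 228, 332 and 425 CPM (7.63, SE 0.54). HPCAL4, LAMP3, DHRS2, ENTPD2 and DES rose by 6.66 to 7.27, and in none of these large rises did TN exceed 1.51 CPM.

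The largest falls were chosen at 10 CPM or more, which a gene that falls must reach in Ctrl. Beside CLDN2, CSF2, CDH6, ITGB6, CLCF1 and TNFSF10 they were ENPP3, an ectonucleotidase that went from 249 and 226 CPM to 9.03, 10.5 and 16.9 CPM (-4.42, SE 0.11), CLEC4E, an innate receptor at 20.4 and 17.2 CPM that TNF-α alone raised to 43.3 and 42.7 CPM and that ended at 0.608, 1.00 and 2.28 CPM (-4.19, SE 0.19), and TM4SF18, SEC14L6, TINAG and FBXW4 with log2 changes from -3.80 to -3.53. TINAG encodes a basement membrane protein of the tubule. In each of the 12 genes all 4 SCFA groups were at least 8 times below Ctrl on the fitted scale, apart from TNFSF10 in BUTN (-3.00).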

How the data were processed

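RNA of the 12 libraries was made into stranded mRNA libraries and sequenced on a HiSeq 2500. With STAR (GRCh38 build) and RSEM (GENCODE annotation) the authors made and deposited expected counts per gene, which are estimates: 19.3% of the values are not whole, and none were scaled or filtered. The strand setting of the counting is not given in the sources used here, so overlapping and closely related genes may share reads. The submitters' processing notes name FastQC 0.11.5 and STAR 2.6.1a.

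Expected counts were used without rounding. Of 58278 listed genes, 33936 were removed because their geometric mean, taken over counts raised by 1 and then lowered by 1 again, was under 1. TMM factors (edgeR 4.0.16), voom weights and a mean for each of the 6 groups (limma 3.58.1, R 4.3.3) gave the contrasts of each SCFA group, of their mean and of TN with Ctrl, and those between the orders and between the acids, with Benjamini-Hochberg adjustment over 24342 genes. The floor was 3 counts in each Ctrl library (0.105 CPM on average), counting error only. Tested on simulated counts, 42 of 50 genes raised and 43 of 50 lowered by 1 on the log2 scale were called in all 4 groups. These genes were drawn from those at 1 CPM or more in Ctrl, so the result does not describe genes under that level.

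Groups come from the source name of each library. Replicate numbers did not pair the libraries: over 15 pairs of groups the correlation of same-numbered deviations was -0.0791 to 0.24, and over 0.1 in 1 pair. The text names the key members of each gene list and its 2 highest and 2 lowest members at 1 CPM or more, and the 12 largest rises and falls at 10 CPM or more that were called in all 4 groups without overlap and are protein-coding, with an established symbol and no near-identical family. Other names were chosen after their values were seen, as the text says. Some items that the rule names are not reported here. The members and lists were chosen with earlier results of these data known. Positions are those of GRCh38, and promoters are from RefSeq (GRCh38.p14). Alternatives were edgeR and DESeq2 1.42.0 (counts rounded), other scalings, filters and thresholds, fewer libraries and a replicate block.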

Additional observations from a re-analysis of the deposited data

Results flagged for a closer look

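Of 159 named genes, many of them chosen for their change from Ctrl or with their values seen, 17 differed between the groups given an SCFA after TNF-α and those given it before (fold over 1.5, adjusted p under 0.05, limma), against 74 higher and 96 lower among all 24342 tested genes (0.304% and 0.394%), although most stood on a single side of Ctrl in all 4 groups. After minus before, the log2 difference was -0.75 for NFKB1, -0.69 for NFKBIA, -0.59 for TNFAIP3, -0.72 for BIRC3, -1.12 for TNF, -0.65 for CSF1, -1.08 for CXCL2 and -0.79 for CCL2. It was -1.06 for ICAM1, -1.66 for TNFAIP2, -0.63 for SDC4, -0.81 for KRT20, -0.61 for AQP1 and -0.78 for ANPEP. CXCL5 (0.81), SLC5A2 (0.91) and LCN2 (1.86, SE 0.04, adjusted p = 1.23e-10) were higher when the SCFA came after TNF-α. The time since TNF-α and the order of the agents cannot be told apart in this design.

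Propionate and butyrate groups differed in 5 of the named genes, against 25 higher and 46 lower with propionate among all tested genes (0.103% and 0.189%). Propionate minus butyrate, over both orders, the log2 difference was -1.20 for CXCL5, -0.88 for KRT20, -0.62 for AQP1, -0.82 for LCN2 and -0.91 for TIE1, an endothelial receptor kinase gene that lay at 2.46 to 8.53 CPM in the SCFA libraries. All 5 were lower with propionate. The acids were given at different concentrations (15 mM and 3 mM). Groups of 2 libraries are too small to look for a library that stands apart.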

How the results depend on the processing

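No gene called in all 4 SCFA groups was called the opposite way in all 4 under any alternative. The consistent genes (4186 up, 2884 down) numbered 4140 and 2807 with edgeR, 3628 and 2458 with DESeq2, and 4775 and 2310 with library size alone as scaling, which moved the median of all genes from 0.06 to 0.18. At least 72.4% of the rises (a filter that any 0 removes) and 80.1% of the falls (library size alone) were shared. Testing the fold of 1.5 itself (treat) gave 2630 up and 1539 down in all 4 groups, 3567 and 2319 for PRTN, 3362 and 1869 for BUTN, 3677 and 2401 for TNPR, 3678 and 2252 for TNBU, 3919 and 2695 for the mean of the 4 groups, and 22 and 4 in TN. Genes higher and lower with the SCFA after rather than before TNF-α (74 and 96) numbered 28 and 50 with DESeq2, 4 and 9 with treat, 26 and 48 over 2-fold and 636 and 455 by unadjusted p. Propionate against butyrate (25 and 46) gave 6 and 22, 0 and 1, 15 and 16, and 280 and 510 in the same order, with 12 higher with edgeR and without TN and 13 with a filter that any 0 removes. A fold over 2 gave 1359 down in all 4 groups, 2339 for PRTN, 1868 for BUTN, 2296 for TNPR, 2132 for TNBU and 2434 for the mean, and 67 up and 40 down in TN. Calling on the mean alone gave 4409 genes down. Unadjusted p-values gave 527 up and 719 down in TN.

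With the replicate number as a block, 4218 genes rose and 2859 fell, and since the numbers do not pair the libraries this is a check only. Leaving out each replicate in turn gave 3396 to 3976 rises and 2720 to 3025 falls in all 4 groups, and 118 to 253 rises and 50 to 203 falls in TN, 21 to 471 and 35 to 275 between the orders, and 2 to 37 and 13 to 78 between the acids. The TN counts had 118 rises without Ctrl replicate 1, and 57 and 77 falls without Ctrl replicate 1 and 2 and 50 and 73 without TN replicate 1 and 2. These ranges include leaving out TNPR replicate 1 and TNBU replicate 1 together (3947 and 2763; 253 and 203 in TN), which was chosen after seeing the data. A filter that any 0 removes reversed the medians of the injury list (-0.42) and the germ cell list (-0.11), and 39 of 50 list medians kept their sign in every alternative. Of 159 named genes 157 kept their call on the mean of the 4 groups in each of the 22 alternatives that tested them. The exceptions were FN1 (-0.56 with library size alone, -0.56 without Ctrl replicate 2) and SLC5A2, which lay at the fold threshold. With 2 libraries a group and shared Ctrl libraries, small changes and genes of few counts are the least certain.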
